A study of Mus musculus with 2 samples.

Results

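Inhibitors of RAS-ERK signalling were compared between bone marrow mesenchymal stem/progenitor cells (MSPC) with normal and with activated SHP2. The set was fixed by name and holds 10 genes of the 35275 in the table: the Sprouty genes Spry1, Spry2 and Spry4, the Spred genes Spred1, Spred2 and Spred3, the GTPase-activating protein (GAP) genes Nf1, Rasa1 and Rasal2, and the ubiquitin ligase gene Cbl. MSPC are stromal cells of the marrow that can form bone, cartilage and fat. They were sorted from C57BL/6 mice as cells without CD45, Ter-119 and CD31 and with CD140 and Sca-1, and poly(A) RNA was sequenced. All mice carried Nestin-Cre, a Cre recombinase under control of Nestin, and were either Ptpn11+/+ (control, 1 library) or Ptpn11E76K/+ (mutant, 1 library). Ptpn11 encodes the phosphatase SHP2 and E76K is an activating change. No source used here gives the age of the mice or says whether a library pools animals, and the series' design text speaks of 2 replicates while the table holds 1 column per genotype.

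Receptor tyrosine kinases switch RAS on through adaptors and exchange factors, and GAPs such as neurofibromin (Nf1) and p120 RasGAP (Rasa1) switch it off by speeding GTP hydrolysis. Sprouty and Spred proteins sit at the membrane and hold back the step from receptor to RAF, and several of their genes are switched on by ERK itself, which makes them feedback inhibitors. Spred proteins bring neurofibromin to the membrane, CBL marks activated receptors for degradation, and SHP2 acts against this group by removing the phosphotyrosines that Sprouty proteins and RasGAP depend on. Activating Ptpn11 mutations are known from Noonan syndrome and juvenile myelomonocytic leukaemia.

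Depth was 22328659 counts for the control library and 18010963 for the mutant one, and levels below are CPM, which are counts per 1000000 of a library's TMM-scaled total. With 1 library per genotype there is no replicate check and no test. Each ratio is mutant over control with a 95% exact interval that covers counting error only. A call, higher or lower, required the entire interval to be past 2-fold. This held for 15.3% of the 13142 genes that reached 20 summed counts, which are named measured genes below. For the sort markers, counts in control and then mutant were 1 and 12 for Ptprc (CD45), 5 and 2 for Pecam1 (CD31), 2073 and 1792 for Pdgfra, and 6075 and 3721 for Pdgfrb, the CD140 genes. Ly6a (Sca-1) was 2.67-fold lower in the mutant library (2.44 to 2.93), and Nes was 2.76-fold higher (2.67 to 2.86). Of 11 measured MSPC markers 4 were called lower, among them Cxcl12 (3.39-fold, 3.24 to 3.55) and Prrx1 (2.75-fold, 2.59 to 2.92), and 2 higher, among them Cd44 (3.39-fold, 3.26 to 3.52). Only 1 was called higher with totals that omit the most abundant genes or with the length and GC trends removed. Differences of the size found for Spry1 thus occurred among these markers. The 20 listed myeloid markers summed to 61.8 CPM in the mutant library against 14.8 in the control. Of the control's 342 counts Csf1r held 149 and Cd14 121, and these had 229 and 237 in the mutant. Lyz2 had 11 and 276 counts. In the control 12 of the 20 were at 0, among them C1qa, Ctss and Itgam, and in the mutant 5 were, among them Mpo and S100a8. Of 11 measured myeloid markers 8 were called higher and 0 lower, or 72.7%, beside 15.3% of all measured genes. Of 6 measured general blood cell markers 4 were called higher and 0 lower (66.7%). With a minimum of 100 counts 2 and 0 were called higher. The part of these marker differences in the values below was not tested. In such bulk libraries fewer cells of a type and less RNA per cell cannot be told apart.

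All 10 genes were measured, with summed counts from 203 for Spry4 to 3711 for Spred1. Spry1 was the only gene of the set called at 2-fold, and it was lower in the mutant library. Of all measured genes 8.29% were called lower and 6.98% higher, so 1 of 10 called is not above the background. The interval excluded no difference for 8 of the 10, with 5 higher and 3 lower, where 77.0% of measured genes did so (39.6% higher and 37.4% lower). It lay beyond 1.5-fold for 5 of the 10 (Spry2, Spry4 and Spred3 higher, Spry1 and Cbl lower), where 31.3% of measured genes did (15.7% higher and 15.6% lower). The median log2 ratio of the set was 0.06 and that of all measured genes 0.01. With TMM scaling 6 of the 10 ratios were above 1. With length and GC trends of the log2 ratio removed 8 were, all except Spry1 and Cbl, and the medians were then 0.44 for the set and 0.05 for all measured genes.

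**Figure D1:**
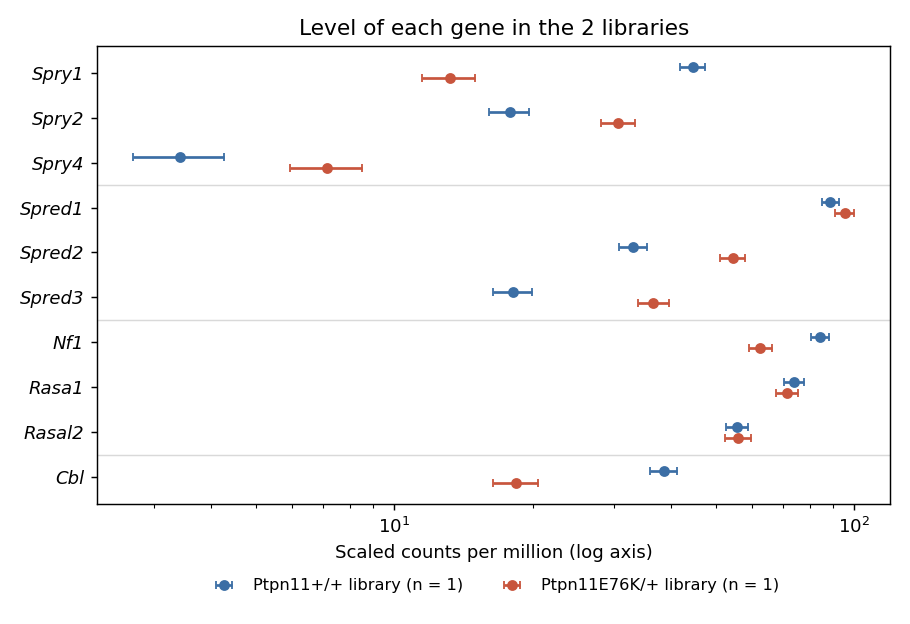
Scaled counts (CPM) of the 10 genes on a log axis, with 1 point per library (blue, Ptpn11+/+; red, Ptpn11E76K/+) and bars for the 95% exact Poisson interval of the count. Spry1 lies at 44.5 CPM in the control and 13.2 in the mutant, Spry2 at 17.8 and 30.7, and the points of Rasal2 nearly coincide.

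The Sprouty genes went in opposite directions. Their RefSeq promoters, the 250 bases before the start site in GRCm38.p6, are shown for Spry1 and Spry2 because this pair traded places as the most counted Sprouty gene. Capitals mark each CpG, the dinucleotide that can be methylated. The windows are chr3:37639697-37639946 on the plus strand for Spry1 and chr14:105896820-105897069 on the minus strand for Spry2.
Spry1: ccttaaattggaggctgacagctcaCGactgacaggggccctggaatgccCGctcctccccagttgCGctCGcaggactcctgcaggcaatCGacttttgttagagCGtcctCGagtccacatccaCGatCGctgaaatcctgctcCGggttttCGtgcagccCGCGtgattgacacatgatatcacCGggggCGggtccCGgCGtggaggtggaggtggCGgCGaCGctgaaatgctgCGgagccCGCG
Spry2: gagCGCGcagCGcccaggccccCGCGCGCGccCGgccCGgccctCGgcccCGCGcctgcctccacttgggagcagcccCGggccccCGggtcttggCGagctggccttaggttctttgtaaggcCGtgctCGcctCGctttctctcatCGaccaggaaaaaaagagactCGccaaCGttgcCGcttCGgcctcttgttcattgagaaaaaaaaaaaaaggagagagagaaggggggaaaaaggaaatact

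Both windows had 23 CpG and a GC content of 62.4%, against medians of 6 CpG and 52.4% over the 32851 promoters of the table. A total of 9 of the 10 genes had a promoter there, all except Spry4. Their windows ranged from 6 CpG (Spred3) to 33 (Cbl), and Spred1 had 31. Exact matches were searched on both strands for the ETS motif CCGGAAGT, the AP-1 motif TGANTCA, the CRE TGACGTCA, the E-box CACGTG and the TATA motif TATAAA. These occurred in 2.88%, 6.75%, 1.55%, 6.02% and 12.4% of all windows in that order. Of the 9 windows 1 held a match, which was the ETS motif in Nf1, read as ACTTCCGG on the gene's strand from 218 bases before the start. The others held none of these letters, which says nothing of binding elsewhere.

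Spry1, a feedback inhibitor of FGF and other receptor signalling, was counted 1029 times in the control library and 229 times in the mutant. Its level was 44.5 CPM (41.8 to 47.3) in the control and 13.2 CPM (11.5 to 15.0) in the mutant. It was 3.38-fold lower in the mutant (2.92 to 3.92), and 5.80% of measured genes had a lower log2 ratio.  Spry1 was called under every scaling of the libraries tried and with length and GC trends of the log2 ratio removed, at 3.38-fold to 3.75-fold lower. The 3 genes with at least 100 counts whose log2 ratio was nearest to that of Spry1 (-1.75) were Plcb1 (1177 and 262 counts), Mxd4 (3390 and 755) and Tspan6 (1945 and 433), a likeness over 2 libraries only. In GENCODE M21 an exon of Spry1 overlaps one of Gm42922 on the opposite strand, which was not analysed here.

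Spry2, which binds CBL and GRB2 and is the most studied of the family, was counted 411 times in the control library and 534 times in the mutant. That is 17.8 CPM (16.1 to 19.6) and 30.7 CPM (28.2 to 33.4). It was 1.73-fold higher in the mutant (1.52 to 1.97), which was not called at 2-fold. Spry4, which also inhibits ERK signalling below growth factor receptors, was the least counted gene of the set with 79 and 124 counts. Its levels of 3.42 CPM (2.70 to 4.26) and 7.13 CPM (5.93 to 8.50) gave a ratio of 2.09 (1.56 to 2.80), which was not called either. For Spry1, Spry2 and Spry4 alike the interval of the ratio excluded no difference, as it did for 77.0% of measured genes. The family's remaining gene, Spry3, was not analysed here.

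Because shares within a family do not depend on how the libraries are scaled, the make-up of the Sprouty counts was compared directly. The length and GC trends were not removed from such shares. Spry1 held 67.7% of the Sprouty counts in the control library (65.3 to 70.1, a 95% exact binomial interval) and 25.8% in the mutant library (23.0 to 28.8). Spry2 held 27.1% (24.8 to 29.4) and 60.2% (56.9 to 63.4), and Spry4 5.20% (4.14 to 6.44) and 14.0% (11.8 to 16.4). Per length of the longest transcript, Spry1 held 63.5% and 22.7%, so the order of Spry1 and Spry2 turned between the libraries on either measure. The ratio of Spry2 was 5.84 times that of Spry1 (exact interval 4.79 to 7.11), and that of Spry4 was 7.05 times that of Spry1 (5.08 to 9.81). Spry4 and Spry2 could not be told apart in this way, since the ratio of Spry4 was 1.21 times that of Spry2 (0.877 to 1.67). The summed Sprouty counts were 1519 and 887, or 65.7 and 51.0 CPM, which is 1.29-fold lower (1.18 to 1.40).

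**Figure D2:**
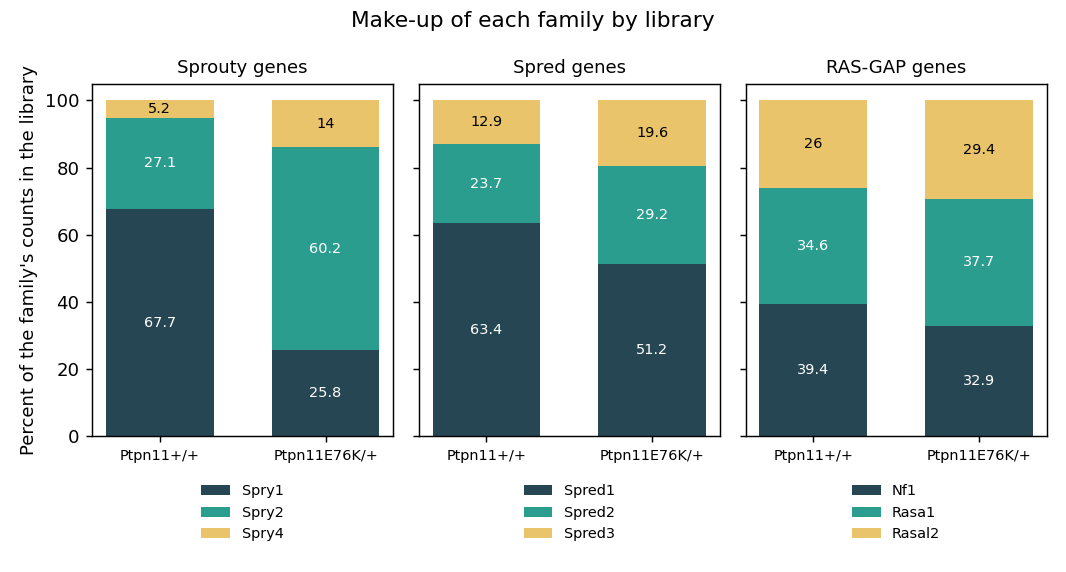
Percent of each family's counts held by each of its genes, as stacked bars for the Ptpn11+/+ and the Ptpn11E76K/+ library (n = 1 each). Spry1 makes up 67.7% of the control library's Sprouty counts and 25.8% of the mutant's, and the shares of the Spred and GAP genes differ less.

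The 3 Spred genes were all higher in the mutant library with TMM scaling, by different amounts. Spred1, whose loss in humans causes Legius syndrome, was the most counted gene of the set with 2052 and 1659 counts. Its levels were 88.7 CPM (84.9 to 92.6) and 95.4 CPM (90.9 to 100.1). The ratio was 1.08 (1.01 to 1.15), and 0.984 with totals that omit the 1% most abundant measured genes, so its direction rests on the scaling. With the length and GC trends removed the ratio of Spred1 was 1.37 (1.29 to 1.47). Spred2, a broadly expressed inhibitor of RAF activation, had 766 and 946 counts, or 33.1 CPM (30.8 to 35.5) and 54.4 CPM (51.0 to 58.0). It was 1.64-fold higher (1.49 to 1.81). Spred3, the least studied member, had 418 and 637 counts, or 18.1 CPM (16.4 to 19.9) and 36.6 CPM (33.8 to 39.6). It was 2.03-fold higher (1.79 to 2.30), and 89.5% of measured genes had a lower log2 ratio. None of the 3 was called at 2-fold.

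Within the family, the ratio of Spred3 was 1.88 times that of Spred1 (1.64 to 2.17) and 1.23 times that of Spred2 (1.05 to 1.45), and the ratio of Spred2 was 1.53 times that of Spred1 (1.36 to 1.72). The share of Spred1 in the Spred counts was accordingly 63.4% (61.7 to 65.1) in the control and 51.2% (49.4 to 52.9) in the mutant. Spred3 held 12.9% (11.8 to 14.1) and 19.6% (18.3 to 21.1). The length and GC trends were not removed from these pair ratios and shares. With the trends removed the ratios were 1.37 for Spred1, 1.69 for Spred2 and 1.96 for Spred3, closer together than with TMM scaling. The summed Spred counts of 3236 and 3242 correspond to 139.9 and 186 CPM, a ratio of 1.33 (1.27 to 1.40) that stayed between 1.22 and 1.33 over the 5 scalings tried. In contrast to the Sprouty genes, the family's leading gene was Spred1 in both libraries. In GENCODE M21 an exon of Spred3 overlaps one of Ggn on the opposite strand. Ggn had 109 and 41 counts, the opposite direction to Spred3, and reads of overlapping genes may be shared because no source used here gives the strand setting of the counting.

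The GAP genes encode the enzymes that return RAS to its inactive state. Of these genes Rasa1 and Rasal2 were close to no difference with TMM scaling. Nf1, the neurofibromin gene, had 1947 and 1087 counts, or 84.2 CPM (80.5 to 88.0) and 62.5 CPM (58.9 to 66.3). It was 1.35-fold lower in the mutant (1.25 to 1.45), but its ratio was 1.07 without the length and GC trends. Rasa1 had 1711 and 1244 counts, or 74.0 CPM (70.5 to 77.6) and 71.5 CPM (67.6 to 75.6), a ratio of 0.967 (0.898 to 1.04). Rasal2, a further RAS-GAP gene, had 1285 and 971 counts, or 55.6 CPM (52.6 to 58.7) and 55.8 CPM (52.4 to 59.5), a ratio of 1.01 (0.924 to 1.09). For Rasa1 and Rasal2 the interval included no difference, and differences beyond 1.11-fold lay outside both intervals. Their ratios were 1.14 and 1.34 with the length and GC trends removed. The ratio of Rasa1 was 1.30 times that of Nf1 (1.17 to 1.45), and that of Rasal2 was 1.35 times (1.21 to 1.52). The length and GC trends were not removed from these pair ratios or from the shares that follow. With the trends removed Nf1 (1.07), Rasa1 (1.14) and Rasal2 (1.34) were closer to each other than these pair ratios give. Nf1 held 39.4% of the counts of these GAP genes in the control and 32.9% in the mutant.

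Several genes lie within or across the GAP genes on the opposite strand. Evi2a, which sits in an intron of Nf1, had a ratio of 2.10 (1.73 to 2.57) on 170 and 269 counts, while Evi2b and Omg, in the same intron, had 0 in both libraries. Exons of Rasa1 overlap those of Ccnh (701 and 528 counts), and exons of Rasal2 overlap those of 2810025M15Rik (511 and 759 counts). With the length and GC trends removed the ratio of Evi2a was 2.13, beside 1.07 for Nf1.

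Cbl, the ubiquitin ligase that sends activated receptors to the lysosome, was counted 891 times in the control library and 320 times in the mutant. Its levels were 38.5 CPM (36.0 to 41.1) and 18.4 CPM (16.4 to 20.5). It was 2.09-fold lower in the mutant (1.84 to 2.39), just outside the call at 2-fold, and 13.2% of measured genes had a lower log2 ratio. With totals that omit the most abundant genes it was called, at 2.29-fold lower. With the length and GC trends removed it was 1.52-fold lower. Its paralogue Cblb (658 and 315 counts) was 1.57-fold lower (1.37 to 1.80), and the ratio of Cblb was 1.33 times that of Cbl (1.10 to 1.61). With the trends removed Cblb was 1.31-fold lower, beside 1.52-fold for Cbl.

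**Figure D3:**
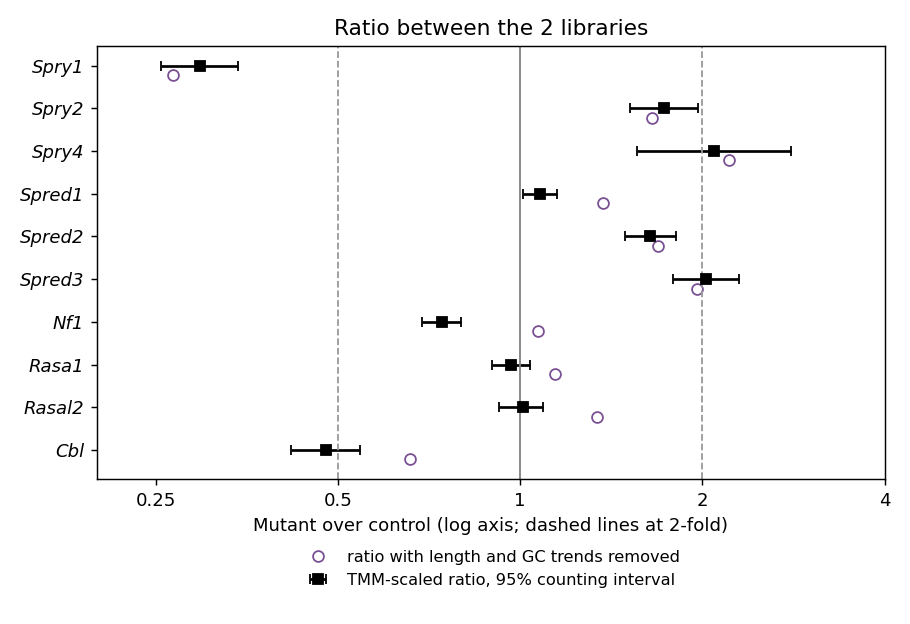
Ratio of the mutant to the control library for each gene on a log axis, with squares for the TMM-scaled ratio, bars for its 95% exact counting interval and open circles for the ratio without length and GC trends; dashed lines mark 2-fold. The whole bar of Spry1 lies below 2-fold lower, and the circles of Cbl, Nf1, Rasa1, Rasal2 and Spred1 lie to the right of their bars.

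Transcript length moved with the ratio over the whole transcriptome, which bears on the genes with long transcripts. The median log2 ratio was 0.22 for the 2898 measured genes with a longest transcript under 2 kb and -0.50 for the 316 genes of 10 kb or more. Of these long genes 17.7% were called lower and 4.11% higher. In this set Nf1 (11917 bases), Cbl (11372 bases) and Rasal2 (10047 bases) belong to that class, while Spry1 (2773 bases) and Spry2 (2087 bases) are in the class from 2 to 4 kb, whose median was 0.08. With both trends removed the ratio was 0.267 for Spry1, 1.65 for Spry2, 2.21 for Spry4, 1.69 for Spred2 and 1.96 for Spred3. The directions of these 5 genes and of Cbl were thus the same with and without the trends.

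**Figure D4:**
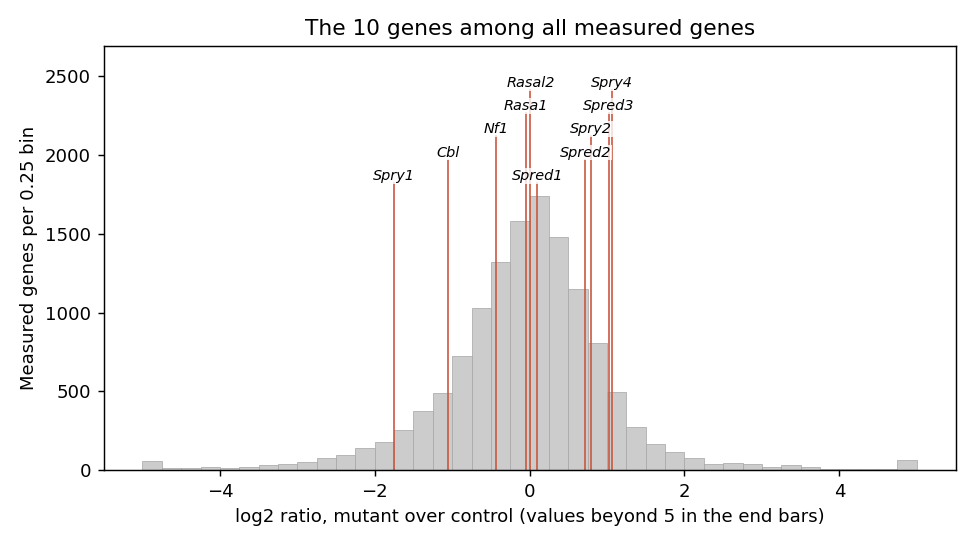
Histogram of the log2 ratio, mutant over control, of the 13142 measured genes in bins of 0.25 (grey), with a red line at the value of each of the 10 genes. Spry1 at -1.75 lies in the lower tail, and Spry4 at 1.06 and Spred3 at 1.02 lie in the upper shoulder.

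Levels between genes were compared as CPM per kilobase of the longest transcript. In the control library Rasa1 (16.2, interval 15.5 to 17.0), Spry1 (16.0, 15.1 to 17.1) and Spred1 (14.7, 14.1 to 15.4) were the highest. The intervals of Rasa1 and Spry1 overlapped, and those of Spry1 and Spred1 overlapped too. Spry2 followed at 8.51, Spred2 at 7.44, Nf1 at 7.06, Rasal2 at 5.53, Spred3 at 4.46, Cbl at 3.39 and Spry4 at 0.718. Among these the neighbours Spry2 and Spred2, and Spred2 and Nf1, had overlapping intervals. In the mutant library Spred1 (15.9, 15.1 to 16.6), Rasa1 (15.7, 14.8 to 16.6) and Spry2 (14.7, 13.5 to 16.0) came first with overlapping intervals. Spred2 followed at 12.2 and Spred3 at 9.03, then Rasal2 at 5.56, Nf1 at 5.25 and Spry1 at 4.75, which overlapped from neighbour to neighbour, and last Cbl (1.62, 1.45 to 1.81) and Spry4 (interval 1.25 to 1.79), which overlapped as well. Spry1 stood at place 2 in the control and place 8 in the mutant with the longest transcript, and at places 6 and 9 with the median transcript length, by which Cbl moved from place 9 to place 2 in the control. On this scale 71.4% of measured genes were below Spry1 in the control and 40.1% in the mutant, and 53.5% and 67.4% were below Spry2.

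The other genes of these families also went both ways. There were 10 further GAP and CBL family genes to compare, of which 7 were measured and none was called at 2-fold, with a median log2 ratio of -0.23. Rasa3, a GAP for RAS and RAP, was 1.78-fold higher (1.63 to 1.95). Rasa2 was 1.26-fold lower (1.11 to 1.44) but had a ratio of 1.06 with the length and GC trends removed. Rasa4 was 1.17-fold lower (1.05 to 1.30). For Dab2ip the ratio was 0.914 (0.851 to 0.982) and, with the trends removed, 1.01. Cbll1 had a ratio of 1.09 (0.893 to 1.32). Rasal1 (0 and 2 counts), Rasal3 (0 and 0) and Cblc (1 and 2) were not measured.

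A list of 18 other inhibitors of receptors and RAS-ERK signalling was all measured, with 3 called higher, 0 lower and a median log2 ratio of 0.15. Lrig1, a transmembrane inhibitor of EGF receptors, had 253 and 897 counts and was 4.72-fold higher (4.10 to 5.44). Rin1, a RAS effector that competes with RAF, was 3.25-fold higher (2.99 to 3.53), and Errfi1, a feedback inhibitor of the EGF receptor, was 2.73-fold higher (2.57 to 2.90). Pebp1, which encodes the RAF kinase inhibitor protein, was the most counted uncalled gene, at a ratio of 1.33 (1.28 to 1.38). The 3 called genes are 16.7% of this list, near the 15.3% of all measured genes. Of 15 listed partners of Sprouty and Spred proteins none was called (median -0.12). The ratio of Ptpn11 itself was 1.12 (1.08 to 1.17) on 5958 and 5039 counts, and such a count does not tell the alleles apart. Nedd4, a ubiquitin ligase for Sprouty proteins, was the most counted partner and 1.45-fold lower (1.43 to 1.48). Of 12 measured CBL partners none was called (median 0.13).

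Upstream, 12 receptor tyrosine kinase genes were measured and 2 were called higher, Flt1 (14 and 290 counts) at 27.6-fold (16.2 to 51.0) and Axl at 2.56-fold (2.50 to 2.62). Of the 4 measured exchange factor genes none was called, and Rapgef1 had a ratio of 1.16 (1.11 to 1.22). In the RAS-ERK core 1 of 21 measured genes was called higher (Hras, 2.39-fold) and 1 lower (Araf, 2.42-fold). The called genes are 16.7% of the measured receptor genes and 9.52% of the measured core genes, beside 15.3% of all measured genes. Downstream, 7 of 14 ERK target genes were called higher and 1 lower, with a median log2 ratio of 1.34. That is 57.1% called, beside 15.3% of all measured genes. Dusp5, Fosl1 and Myc were 12.4-fold, 7.85-fold and 4.90-fold higher. Another 6 were not called, and the most counted of them, Ccnd1, had a ratio of 1.20 (1.15 to 1.24). Epha4 was 3.71-fold lower (2.11 to 6.96), on 74 and 15 counts, but was not called with the trends removed, with a minimum of 100 counts or with a 99% interval. The lists were chosen with earlier results of these libraries known.

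**Figure D5:**
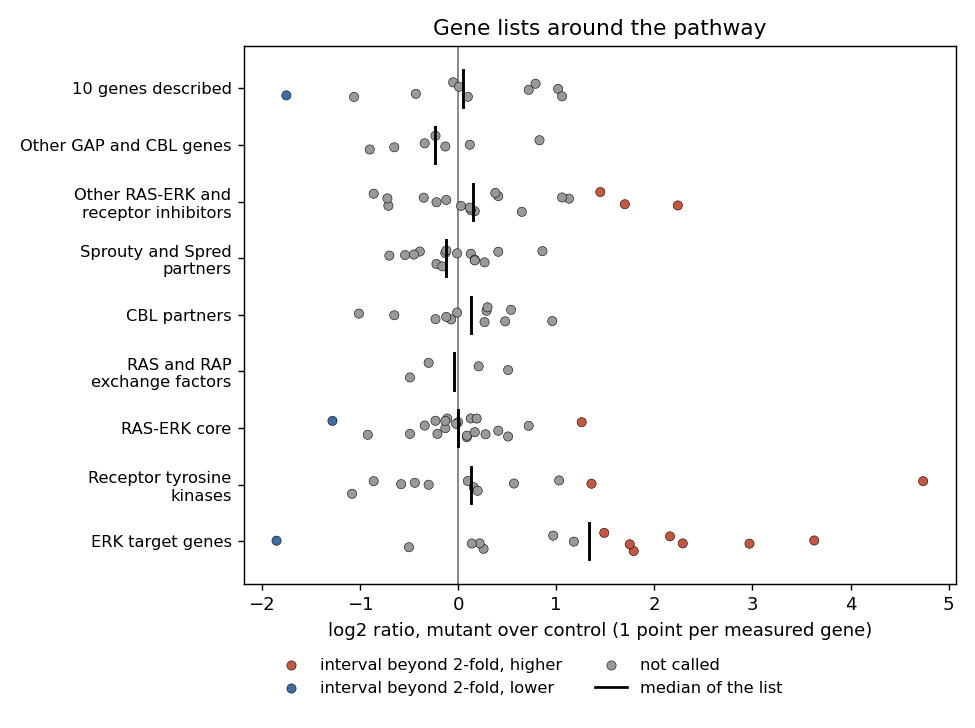
log2 ratio, mutant over control, of each measured gene in the 10-gene set and in 8 lists around the pathway, with 1 point per gene, the list median as a black line, and colour for genes whose counting interval lay beyond 2-fold (red higher, blue lower). Points of the 10-gene set lie on both sides of 0, and 7 of the 14 ERK target genes are red.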

How the data were processed

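RNA sequencing counts of 2 libraries, 1 per genotype, were used. The authors deposited raw read counts per Ensembl gene. Per the submitters' processing notes CASAVA, TopHat, edgeR and build mm9 were used, with no role stated. The counter, annotation release and strand setting: not given in the sources used here. No sample column was left unused (0). Symbols were found for 34490 of 35275 identifiers in the supplied name table. Lengths, GC content and overlaps come from GENCODE M21 (GRCm38) and promoters from RefSeq (GRCm38.p6), neither being the build of the counts.

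Totals were scaled with TMM factors (1.0358 control, 0.9654 mutant; edgeR 4.0.16, R 4.3.3). Ratios have exact Clopper-Pearson intervals from the split of counts (SciPy 1.17.1), log2 ratios a prior count of 0.5, and ratios within pairs conditional exact intervals. Trends over the length and GC content of each gene's longest transcript were lowess fits (statsmodels 0.14.6). All intervals cover counting error only, because each genotype has 1 library. Reads carry no molecular identifiers, so duplicate reads cannot be told apart, and the intervals may be too narrow even for counting error. The procedure was run on simulated Poisson counts, which hold no variation between animals or libraries and so cannot test for it. The comparison of proteins that had been planned was not made. Named genes are the 10 members, Ptpn11, their relatives, sort markers, genes inside Nf1, the 3 genes nearest to each called member, and per list up to 3 called genes per direction with the most counted uncalled one; genes overlapping other members were added after their values were seen. Some genes that this rule names are not reported here. Members and lists were chosen with earlier results of these data known. Alternatives were other scalings (DESeq2 1.42.0 among them), minimums, thresholds, interval levels and prior counts.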

Additional observations from a re-analysis of the deposited data

How the results depend on the processing

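Spry1 was called lower under each alternative run. Among the 10 genes Nf1, Spred1, Rasa1 and Rasal2, none of them called at 2-fold, had ratios on both sides of 1 over the scalings and with the length and GC trends removed. The number of the 10 genes called was 2 when the 1% most abundant measured genes were left out of the totals (Cbl joined Spry1), 5 with a threshold of 1.5-fold and 8 with an interval that only excludes no difference. Those thresholds called 4109 and 10120 of all measured genes, against 2007 (917 higher and 1090 lower). Of the list genes, which include the cell markers as well as the pathway lists, they called 52 and 104, against 34. The share of higher genes among all calls was 45.7%, and 35.4% without the most abundant genes in the totals. That scaling moved the median log2 ratio of all measured genes from 0.01 to -0.12, and total counts moved it to -0.10. The median of the 10 genes was -0.07 and -0.05 there, and 0.44 with the length and GC trends removed, where that of all genes was 0.05. Counted per length, Spry1 held 63.5% and 22.7% of the Sprouty counts, and Spred1 55.3% and 42.7% of the Spred counts, in control and mutant. With the median transcript length per gene in place of the longest, 3 of the 10 genes kept their place in the control order, so that order rests on the transcript models. Among the list genes, Egfr (2.11-fold lower, interval 1.99 to 2.23) was called with total counts, with upper-quartile factors and without the most abundant genes in the totals, Pik3r1 (2.01-fold lower, 1.86 to 2.18) without the most abundant genes, and Ube2d3 with the trends removed (ratio 2.57). The trends were fitted on each gene's longest transcript, which for Ube2d3 has 19300 bases beside a median transcript length of 869.5. For Cbl these lengths are 11372 and 457 bases. Ratios with the trends removed therefore rest on the transcript models too, and a fit on the median length was not tested. No paired analysis was possible because each genotype has 1 library. Depth limits Spry4 most, whose 203 counts leave a ratio between 1.56 and 2.80.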
